A study of Mus musculus with 12 samples.

Results

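The genes described are 41 named genes of cell division, 32 that act in mitosis and 9 that act in DNA replication, in a microarray study of ankle joints of arthritic and control mice with and without Mmp8. They were chosen by name, and a gene was read from its array feature with that symbol alone, or from the brightest of several. Of the 41, 40 had such a feature, among 19938 genes of the array with one, and all 40 passed the filter on low signal, which kept 16980 genes. The gene without a row here was Ccnb1, a cyclin partner of Cdk1. The least bright of the 40, Ttk, had a mean log2 signal of 6.60, and the lowest mean that was tested was 4.917. The 4 groups were arthritic Mmp8-/- mice (arrays 08SE1187 to 08SE1189), control Mmp8-/- mice (08SE1181 to 08SE1183), arthritic Mmp8+/+ mice (08SE1184 to 08SE1186) and control Mmp8+/+ mice (08SE1178 to 08SE1180), with 3 mice in each. In the arthritic groups, 150 µl of K/BxN serum, which transfers arthritis through its autoantibodies, was given intraperitoneally on days 0 and 2 and the joints were taken on day 7, and the control mice had no arthritis. All mice were described as male and of the C57BL/6 strain, the Mmp8 deletion was carried in all cells, and the RNA came from whole pulverised ankles.

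A dividing cell copies its DNA in S phase and separates the copies in mitosis. The Mcm proteins form the helicase that opens the DNA at replication forks, and Rrm2, Tyms and Tk1 supply the deoxynucleotides. In mitosis, Cdk1 with its cyclins and the kinases Aurka and Plk1 drive entry and the build-up of the spindle, kinetochore proteins tie the chromosomes to it, the checkpoint holds the cell until all are attached, and Cdc20 and Ube2c let the anaphase-promoting complex release it. Kinesins, Prc1 and Anln then part the chromosomes and the 2 daughter cells. In an ankle that still holds its bone, much of the division under normal conditions is of blood precursors in the marrow, and in inflamed joints synovial fibroblasts and their neighbours can divide as well.

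Values are log2 signals after robust multichip averaging (RMA), in which a difference of 1 is a doubling. They are given for the 3 arrays of a group in the order of the array names above. Differences were tested with limma over all 12 arrays, and a gene was called higher or lower at a Benjamini-Hochberg adjusted p under 0.05 over the 18521 features tested. The ± beside a log2 fold change is its SE and that beside a mean its SD, with n = 3. In such bulk samples, more dividing cells and more RNA of these genes per cell cannot be told apart.

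Before the results, 3 control arrays stood apart from their labels or from the rest. The array labelled Mmp8-/- control 08SE1182 had a Mmp8 log2 signal of 10.65, against 4.64 to 5.54 on the other 5 Mmp8-/- arrays and 10.21 to 11.16 on the 6 Mmp8+/+ arrays. The arrays 08SE1181 (Mmp8-/- control) and 08SE1178 (Mmp8+/+ control) had Xist signals of 10.92 and 10.42, where the other 10 arrays had 4.66 to 5.41, and Eif2s3y signals of 4.02 to 4.16, where the other 10 had 7.94 to 9.27, which goes against the description of the mice as male. Markers of the ankle tissue were bright on every array. Mean log2 signals were 8.29 to 9.12 for 9 chondrocyte genes and 10.94 to 11.39 for 10 synovial fibroblast genes. Some genes of both lists changed with arthritis. In Mmp8-/- ankles limma called 2 genes of each list up and 2 down. In Mmp8+/+ ankles 2 chondrocyte and 3 synovial fibroblast genes were called, all upward. The synovial fibroblast means of Mmp8+/+ arrays were 11.26 to 11.32 with arthritis and 10.94 to 11.17 without, whereas those of Mmp8-/- arrays overlapped. Lists of other joint tissues, given with the blood cells, also differed with arthritis. Array medians over all features lay between 6.74 and 6.82. The arthritic Mmp8-/- array 08SE1187 was the lowest of 12 for 19.3% and the highest for 20.3% of all tested features, the largest shares of any array. When arrays were weighted by their spread it had the lowest weight, 0.355.

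A part of the mitosis genes was higher in arthritic ankles, with more calls in Mmp8-/- than in Mmp8+/+ mice, while no replication gene passed the test in either genotype. In Mmp8-/- mice, 18 of 31 mitosis genes were higher in arthritic than in control ankles, 0 were lower, and the median log2 fold change was 0.65. Of all features tested, 8.04% were higher and 13.4% were lower in the same comparison. Of the 9 replication genes, 0 were called, 3 passed an unadjusted p of 0.05, and the median was 0.31. In Mmp8+/+ mice, 4 of 31 mitosis genes were higher and 0 lower with a median of 0.26, where 7.29% of all features were higher and 11.4% lower. There, 0 of 9 replication genes were called, 1 had an unadjusted p under 0.05, and the median was 0.12. With 8.04% and 7.29% of all features called higher, 0 of only 9 genes says little about the replication genes in either genotype. The median over all features was 0.01 in Mmp8-/- and 0.02 in Mmp8+/+ mice.

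The Mmp8-/- count was smaller when the control arrays named above were left out, which also left fewer mice. Leaving out the arthritic array 08SE1189 likewise made it smaller, at 9. Without the 2 arrays with Xist signal it was 2 of 31 (Anln and Birc5), with a median log2 fold change of 0.55. Without the array labelled Mmp8-/- control 08SE1182 it was 6 of 31, with a median of 0.66. Without these 3 arrays, which leaves 1 control Mmp8-/- mouse whose spread is assumed to be that of the other groups, limma called 0 of 31, 3 had an unadjusted p under 0.05, and the median was 0.38. In Mmp8+/+ mice the count was 1 (Anln) without the Xist arrays and 0 without these 3 arrays, with 7 of 31 higher at an unadjusted p under 0.05 and a median of 0.28 both times. Its median was lower without the arthritic array 08SE1186 (0.13) or the control array 08SE1180 (0.14).

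The level of both classes on each array shows where these medians came from. The 31 mitosis genes averaged a log2 signal of 8.03, 8.38 and 8.52 in arthritic and 7.45, 7.73 and 7.98 in control Mmp8-/- mice. They averaged 7.94, 8.19 and 8.45 in arthritic and 8.00, 8.09 and 7.99 in control Mmp8+/+ mice. The arthritic Mmp8-/- arrays all lay above the control Mmp8-/- arrays, the lowest by little, whereas in Mmp8+/+ mice the lowest arthritic array lay below all 3 controls. The 9 replication genes averaged 8.43, 8.60 and 8.78 in arthritic and 8.17, 8.30 and 8.47 in control Mmp8-/- mice. In Mmp8+/+ mice they averaged 8.49, 8.47 and 8.87 in arthritic and 8.37, 8.58 and 8.55 in control animals. For replication genes the groups overlapped in both genotypes.

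**Figure D1:**
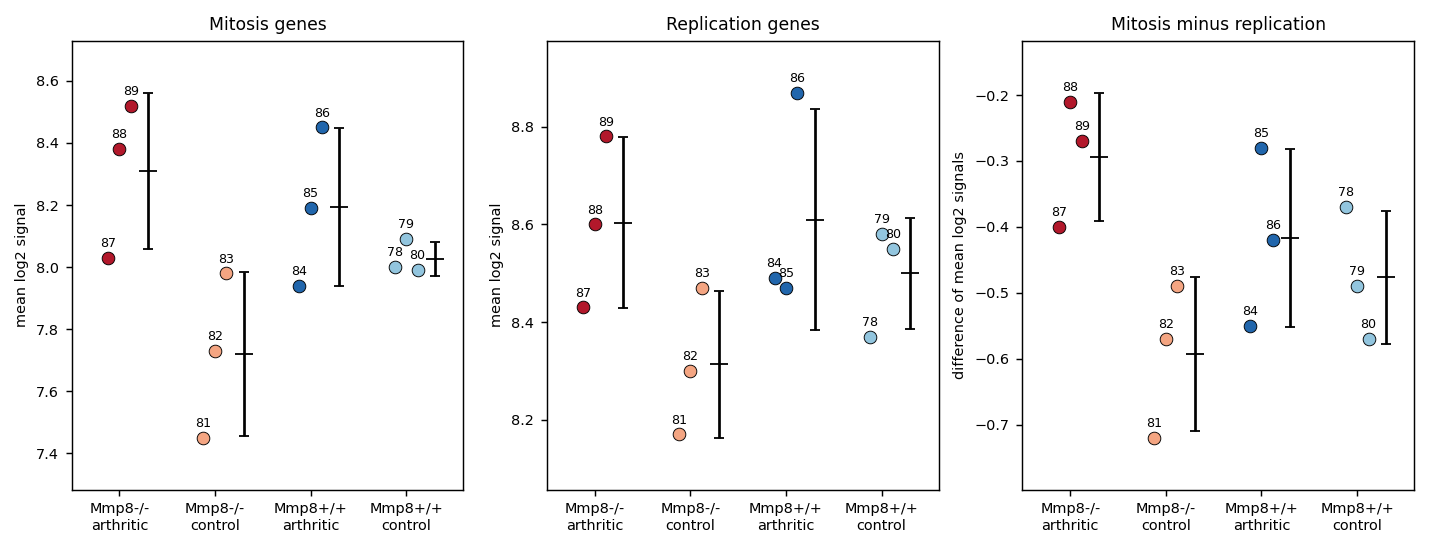
Mean log2 signal of the 31 mitosis genes (left), of the 9 replication genes (middle) and their difference (right) on each array, with the last digits of the array name beside each point. The bar beside each group is its mean ± SD (n = 3); the control Mmp8-/- arrays 81 and 82 are the lowest for both classes, at 7.45 and 7.73 for mitosis genes.

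Set against the replication genes of the same array, mitosis genes stood relatively highest in arthritic Mmp8-/- mice by the group means. The mitosis mean minus the replication mean was -0.29 ± 0.10 in arthritic and -0.59 ± 0.12 in control Mmp8-/- mice, with no overlap of the 3 arrays each. It was -0.42 ± 0.14 in arthritic and -0.48 ± 0.10 in control Mmp8+/+ mice, and these overlapped. The arthritic Mmp8-/- arrays (-0.40 to -0.21) also overlapped those of arthritic (-0.55 to -0.28) and control Mmp8+/+ mice (-0.57 to -0.37). These differences compare an array with itself and carry no test.

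Within the groups, single mice set the extremes. The array 08SE1181 was the lowest of all 12 for 25 of 40 members (62.5%), where it was the lowest for 10.3% of all tested features. The array 08SE1189, an arthritic Mmp8-/- mouse, was the highest of 12 for 17 members (42.5%), against 7.69% of all features. The arthritic Mmp8+/+ array 08SE1186 was the highest of 12 for 9 (22.5%), against 4.89% of all features. Among arthritic Mmp8-/- mice 08SE1187 was the lowest for 31 of 40 (77.5%), against 36.5% of all features. Among arthritic Mmp8+/+ mice 08SE1186 was the highest for 33 of 40 (82.5%), against 32.5% of all features. The genes thus moved together from mouse to mouse, also between mice of 1 group.

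**Figure D2:**
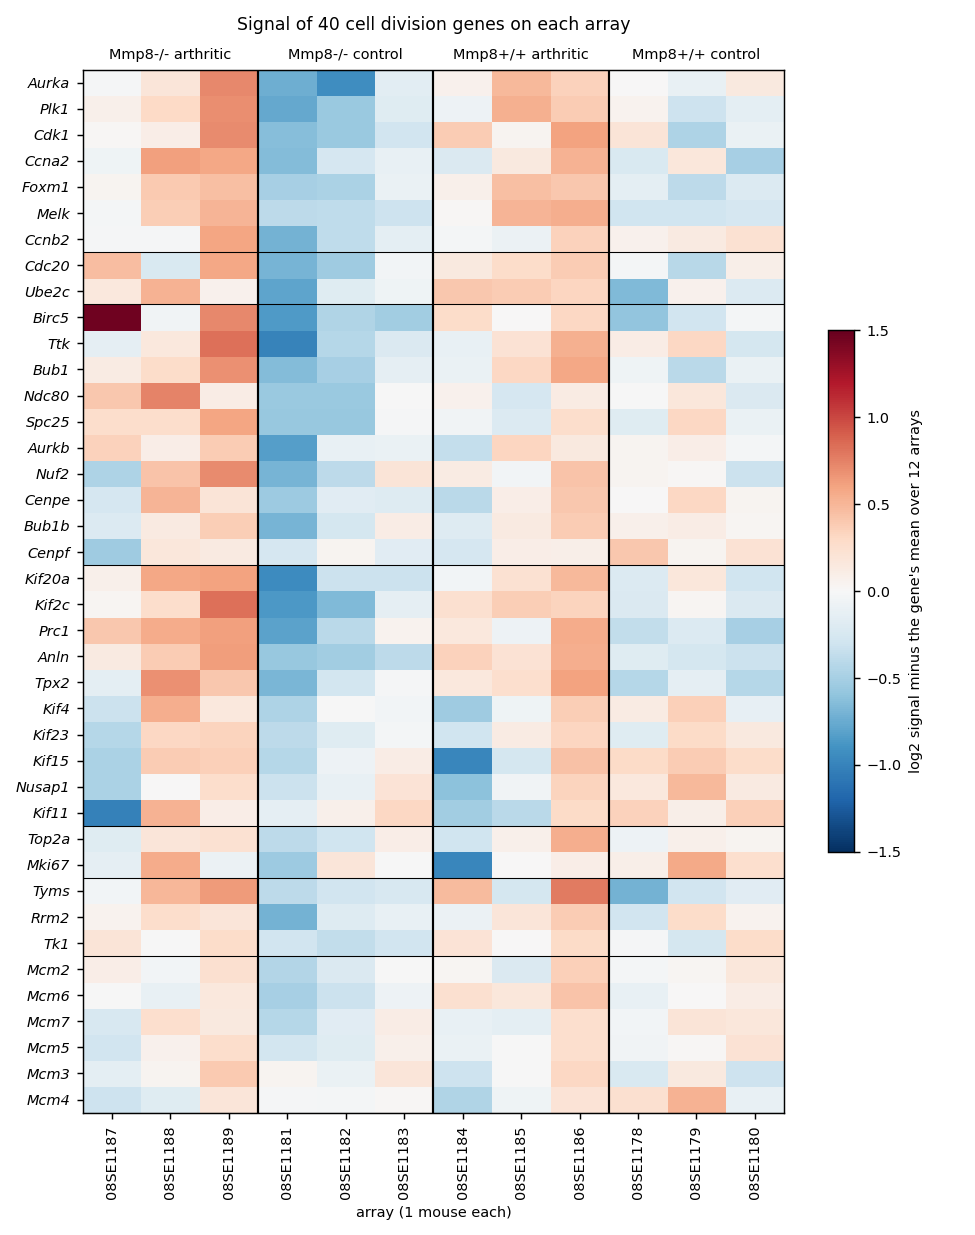
Log2 signal of the 40 genes (rows, by role and then by change in Mmp8-/- mice) on each array (columns, by group), as the difference from the gene's own mean over the 12 arrays. The control Mmp8-/- array 08SE1181 is blue for most rows, and Kif11, Kif15, Nusap1 and Mki67 are low on the arthritic Mmp8+/+ array 08SE1184.

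In Mmp8-/- mice, all of the kinases, cyclins and their regulator that drive entry into mitosis were called, and in Mmp8+/+ mice 2 of 7. The 7 measured were higher in arthritic Mmp8-/- mice, by log2 fold changes of 0.60 to 0.89, with a median of 0.71. They were Aurka, which matures the spindle poles, Plk1 (0.86 ± 0.21), which acts from entry to exit, Cdk1 (0.77 ± 0.22), its cyclins Ccna2 (0.71 ± 0.24) and Ccnb2, the transcription factor Foxm1, which switches on genes of late cell cycle, and Melk, a kinase of dividing and progenitor cells. Aurka, the largest change of the group, measured 8.48, 8.68 and 9.22 in arthritic and 7.77, 7.57 and 8.35 in control Mmp8-/- mice, and 8.57, 8.99 and 8.85 in arthritic and 8.51, 8.39 and 8.65 in control Mmp8+/+ mice. Its change was 0.89 ± 0.22 (adjusted p = 0.0129) in Mmp8-/- and 0.29 ± 0.22 (adjusted p = 0.381) in Mmp8+/+ mice. The control Mmp8-/- arrays were its 3 lowest.

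Ccnb2, the smallest change of the group, measured 8.99, 8.99 and 9.60 in arthritic and 8.30, 8.62 and 8.86 in control Mmp8-/- mice, a change of 0.60 ± 0.20 (adjusted p = 0.0443). In Mmp8+/+ mice it measured 8.98, 8.92 and 9.35 in arthritic and 9.07, 9.14 and 9.23 in control animals, a change of -0.06 ± 0.20 (adjusted p = 0.858). The control Mmp8-/- mice lay below the control Mmp8+/+ mice with no overlap, whereas the arthritic groups overlapped. Melk and Foxm1 differed from this pattern, as they were called higher in both genotypes.

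Melk measured 7.35, 7.75 and 7.89 in arthritic and 6.98, 7.00 and 7.07 in control Mmp8-/- mice, and 7.39, 7.89 and 7.92 in arthritic and 7.08, 7.08 and 7.13 in control Mmp8+/+ mice. Its log2 fold change was 0.64 ± 0.18 (adjusted p = 0.0203) in Mmp8-/- and 0.63 ± 0.18 (adjusted p = 0.0224) in Mmp8+/+ mice, and the 6 control mice lay between 6.98 and 7.13. Foxm1 measured 7.05, 7.40 and 7.46 in arthritic and 6.51, 6.53 and 6.91 in control Mmp8-/- mice, a change of 0.65 ± 0.17 (adjusted p = 0.0184). Its values in Mmp8+/+ mice were 7.08, 7.46 and 7.41 in arthritic and 6.86, 6.62 and 6.80 in control animals, a change of 0.56 ± 0.17 (adjusted p = 0.0373). Arthritic and control arrays did not overlap for either gene in either genotype.

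Of the pair that triggers anaphase, Cdc20, the activator of the anaphase-promoting complex, was called in Mmp8-/- mice and Ube2c, its ubiquitin-conjugating enzyme, was in neither genotype. Cdc20 measured 8.65, 7.96 and 8.77 in arthritic and 7.49, 7.65 and 8.15 in control Mmp8-/- mice, a change of 0.70 ± 0.23 (adjusted p = 0.0412) with 1 arthritic mouse within the control range. In Mmp8+/+ mice it measured 8.33, 8.46 and 8.57 in arthritic and 8.16, 7.77 and 8.28 in control animals, a change of 0.38 ± 0.23 (adjusted p = 0.252). Ube2c measured 8.12, 8.48 and 8.02 in arthritic and 7.16, 7.77 and 7.89 in control Mmp8-/- mice, and 8.36, 8.34 and 8.28 in arthritic and 7.29, 8.02 and 7.75 in control Mmp8+/+ mice. Its groups did not overlap, and its changes of 0.60 ± 0.22 (adjusted p = 0.0611) in Mmp8-/- and 0.64 ± 0.22 (adjusted p = 0.0544) in Mmp8+/+ mice were near the threshold.

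Among the 10 kinetochore and checkpoint genes, 6 were called higher in Mmp8-/- mice and 0 in Mmp8+/+ mice, with medians of 0.69 and 0.02. Birc5 (survivin), which with Aurkb forms part of the complex that corrects faulty attachments, had the largest change of all 40 genes. It measured 8.83, 7.32 and 8.10 in arthritic and 6.53, 6.92 and 6.85 in control Mmp8-/- mice, a change of 1.32 ± 0.29 (adjusted p = 0.00607). Its values in Mmp8+/+ mice were 7.65, 7.38 and 7.69 in arthritic and 6.78, 7.09 and 7.35 in control animals, a change of 0.50 ± 0.29 (adjusted p = 0.233). The arthritic Mmp8-/- mice were far apart for Birc5, and 08SE1187, the lowest of them for most members, was the highest.

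The other 5 that rose in Mmp8-/- mice included the checkpoint kinases Ttk (0.83 ± 0.26) and Bub1 (0.79 ± 0.21). The rest were the kinetochore proteins Ndc80 (0.79 ± 0.20) and Spc25 (0.75 ± 0.20), and Aurkb (0.63 ± 0.21). The limma adjusted p of these 5 lay between 0.0148 and 0.0485. Their changes in Mmp8+/+ mice lay between -0.01 and 0.46, with adjusted p of 0.139 or above. Nuf2, which pairs with Ndc80, changed by 0.52 ± 0.28, the kinesin Cenpe by 0.45 ± 0.23 and the checkpoint protein Bub1b by 0.38 ± 0.21 in Mmp8-/- mice, and these did not pass. Cenpf, a large kinetochore protein, had the smallest change, 0.05 ± 0.20 (adjusted p = 0.872) in Mmp8-/- mice and -0.25 ± 0.20 (adjusted p = 0.393) in Mmp8+/+ mice. It measured 6.71, 7.41 and 7.37 in arthritic and 6.99, 7.28 and 7.07 in control Mmp8-/- mice, and 6.98, 7.34 and 7.32 in arthritic and 7.64, 7.28 and 7.46 in control Mmp8+/+ mice, with overlap throughout.

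**Figure D3:**
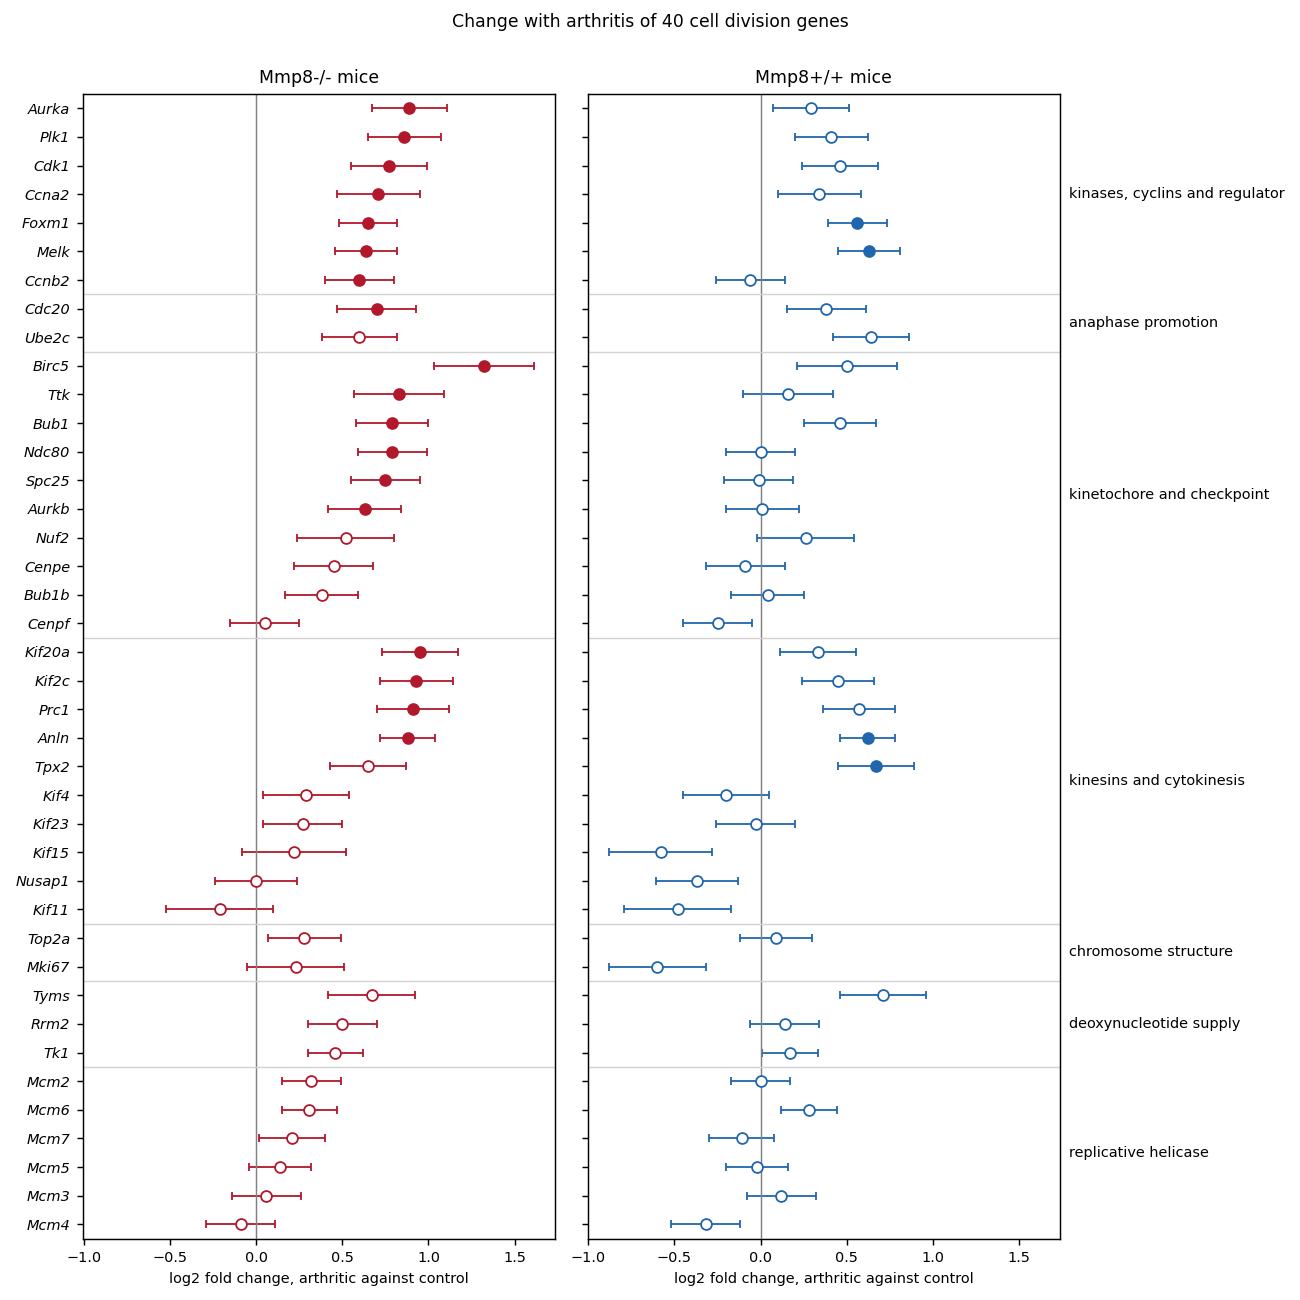
Log2 fold change of each of the 40 genes, arthritic against control, in Mmp8-/- mice (left) and Mmp8+/+ mice (right), with SE as bars and genes grouped by role. Filled points have a limma adjusted p under 0.05, 18 in Mmp8-/- and 4 in Mmp8+/+ mice; the 6 replicative helicase genes at the bottom have none in either panel.

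The 10 kinesin, spindle and cytokinesis genes split. Kif20a, a kinesin needed for cytokinesis, Kif2c (0.93 ± 0.21), which takes microtubules apart, Prc1 (0.91 ± 0.21), which bundles the central spindle, and Anln, which organises the cleavage furrow, were called higher in Mmp8-/- mice. Kif20a measured 8.30, 8.80 and 8.83 in arthritic and 7.28, 7.90 and 7.90 in control Mmp8-/- mice, a change of 0.95 ± 0.22 (adjusted p = 0.00801). In Mmp8+/+ mice it measured 8.18, 8.45 and 8.71 in arthritic and 8.02, 8.39 and 7.93 in control animals, a change of 0.33 ± 0.22 (adjusted p = 0.293). The groups overlapped in Mmp8+/+ but not in Mmp8-/- mice.

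Anln was called in both genotypes and had the smallest adjusted p of the 40 in each. It measured 8.17, 8.42 and 8.66 in arthritic and 7.46, 7.51 and 7.64 in control Mmp8-/- mice, a change of 0.88 ± 0.16 (adjusted p = 0.00178). Its values in Mmp8+/+ mice were 8.38, 8.25 and 8.58 in arthritic and 7.85, 7.77 and 7.71 in control animals, a change of 0.62 ± 0.16 (adjusted p = 0.0142). All 6 arthritic mice lay above all 6 controls. Tpx2, which activates Aurka on the spindle, lay at the threshold in both genotypes and passed it in Mmp8+/+ mice, at 0.67 ± 0.22 (adjusted p = 0.0498), against 0.65 ± 0.22 (adjusted p = 0.0513) in Mmp8-/- mice. It measured 8.34, 9.17 and 8.89 in arthritic and 7.80, 8.21 and 8.46 in control Mmp8-/- mice, and 8.64, 8.73 and 9.09 in arthritic and 8.06, 8.35 and 8.05 in control Mmp8+/+ mice.

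The remaining 5 genes of this group did not pass in either genotype. Kif4, Kif23 and Kif15, motors of chromosome arms, the central spindle and the bipolar spindle, changed by 0.29 ± 0.25, 0.27 ± 0.23 and 0.22 ± 0.30 in Mmp8-/- mice, and by -0.20, -0.03 and -0.58 in Mmp8+/+ mice. Kif11, the main motor that pushes spindle poles apart, changed by -0.21 ± 0.31 and -0.48 ± 0.31, the 2 values being for Mmp8-/- and Mmp8+/+ mice. Nusap1, which stabilises spindle microtubules, had a change of 0.00 ± 0.24 (adjusted p = 0.995) in Mmp8-/- mice and -0.37 ± 0.24 (adjusted p = 0.296) in Mmp8+/+ mice. It measured 7.56, 8.04 and 8.30 in arthritic and 7.72, 7.93 and 8.25 in control Mmp8-/- mice, and 7.42, 7.99 and 8.37 in arthritic and 8.20, 8.52 and 8.17 in control Mmp8+/+ mice.

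Mki67 and Top2a, the usual histological and expression markers of proliferation, were called in neither genotype. Mki67, which coats mitotic chromosomes, measured 8.93, 9.63 and 8.98 in arthritic and 8.53, 9.25 and 9.06 in control Mmp8-/- mice, a change of 0.23 ± 0.28 (adjusted p = 0.566). In Mmp8+/+ mice it measured 8.09, 9.07 and 9.17 in arthritic and 9.16, 9.64 and 9.32 in control animals, a change of -0.60 ± 0.28 (adjusted p = 0.151). Of the arthritic Mmp8+/+ mice, 08SE1184 was the lowest of all 12. Top2a, the topoisomerase that untangles sister chromosomes, measured 9.24, 9.60 and 9.65 in arthritic and 9.02, 9.12 and 9.52 in control Mmp8-/- mice, and 9.12, 9.49 and 9.96 in arthritic and 9.34, 9.49 and 9.46 in control Mmp8+/+ mice. Its changes were 0.28 ± 0.21 (adjusted p = 0.334) in Mmp8-/- and 0.09 ± 0.21 (adjusted p = 0.778) in Mmp8+/+ mice.

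**Figure D4:**
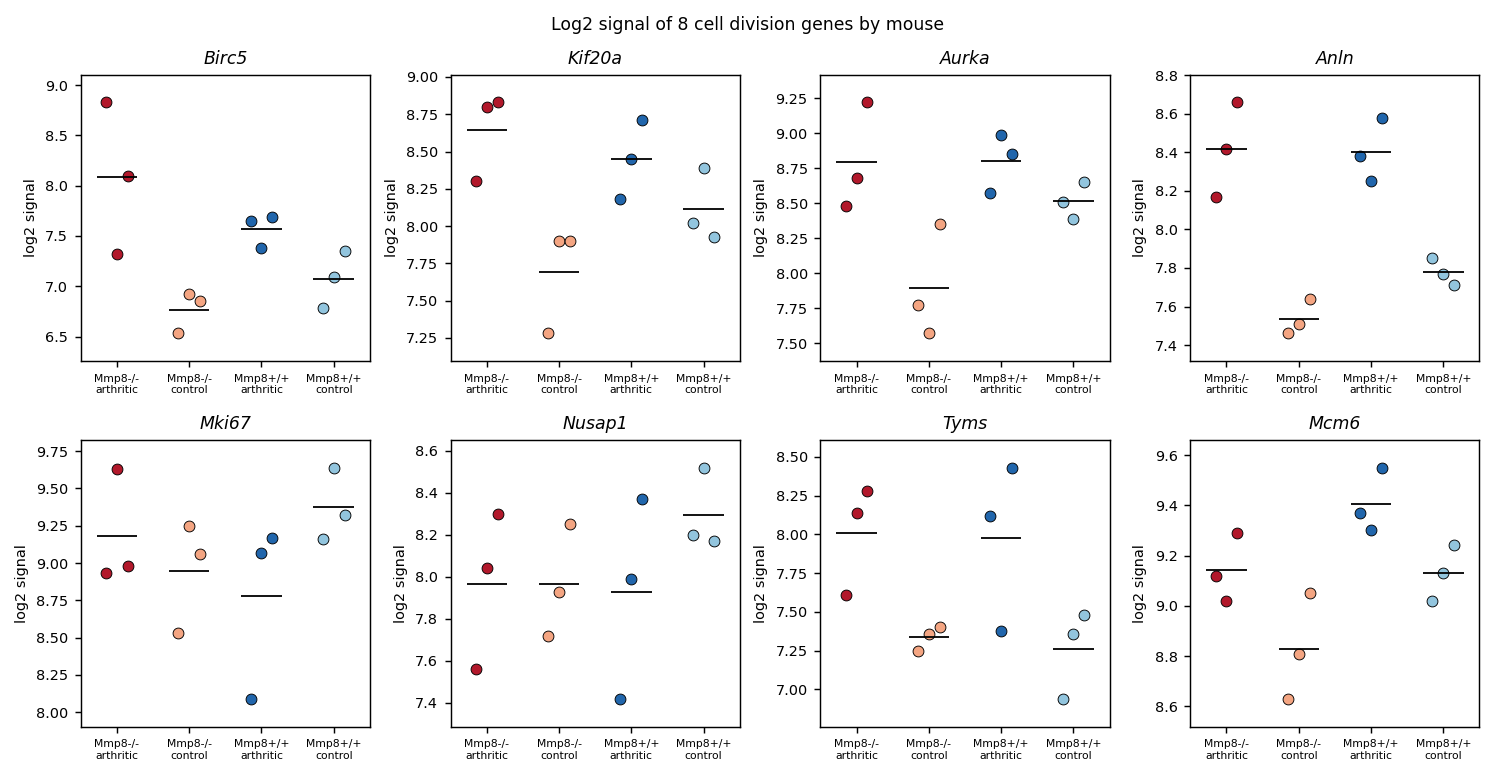
Log2 signal of 8 of the genes by mouse, with 1 point per mouse and the group mean as a line; each axis has its own range. Anln is higher in all 6 arthritic mice than in all 6 controls, whereas Mki67 and Nusap1 overlap between the groups.

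In Mmp8-/- mice the 3 enzymes that supply deoxynucleotides had larger fold changes than the 6 helicase genes, without passing the test, whereas in Mmp8+/+ mice this held for Tyms but not for Rrm2 and Tk1. Tyms, which makes thymidylate, measured 7.61, 8.14 and 8.28 in arthritic and 7.25, 7.36 and 7.40 in control Mmp8-/- mice, a change of 0.67 ± 0.25 (adjusted p = 0.0634) with no overlap. Its values in Mmp8+/+ mice were 8.12, 7.38 and 8.43 in arthritic and 6.94, 7.36 and 7.48 in control animals, a change of 0.71 ± 0.25 (adjusted p = 0.0576). Rrm2, the regulated subunit of ribonucleotide reductase, changed by 0.50 ± 0.20 (adjusted p = 0.0802) in Mmp8-/- and 0.14 ± 0.20 in Mmp8+/+ mice.

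Tk1, the thymidine kinase of S phase, measured 8.18, 7.98 and 8.26 in arthritic and 7.70, 7.62 and 7.70 in control Mmp8-/- mice, a change of 0.46 ± 0.16 (adjusted p = 0.0557). In Mmp8+/+ mice it measured 8.20, 7.99 and 8.28 in arthritic and 7.97, 7.73 and 8.27 in control animals, a change of 0.17 ± 0.16 (adjusted p = 0.49). A dimmer feature with the same symbol measured 7.77, 7.27 and 7.77 in arthritic and 6.35, 6.64 and 7.34 in control Mmp8-/- mice, and 7.64, 7.22 and 7.58 in arthritic and 7.09, 7.19 and 7.38 in control Mmp8+/+ mice. Both features were higher in the arthritic groups by their means, but by different amounts, and with the 2 averaged Tk1 was called in Mmp8-/- mice.

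None of the 6 helicase genes was called in either genotype, and 0 had an unadjusted p under 0.05 in either. Mcm2 measured 8.41, 8.27 and 8.55 in arthritic and 7.87, 8.09 and 8.30 in control Mmp8-/- mice, and 8.34, 8.09 and 8.66 in arthritic and 8.28, 8.34 and 8.48 in control Mmp8+/+ mice. Its change of 0.32 ± 0.17 (adjusted p = 0.186) in Mmp8-/- mice was the largest of the 6, beside 0.00 ± 0.17 in Mmp8+/+ mice. Mcm6 measured 9.12, 9.02 and 9.29 in arthritic and 8.63, 8.81 and 9.05 in control Mmp8-/- mice, and 9.37, 9.30 and 9.55 in arthritic and 9.02, 9.13 and 9.24 in control Mmp8+/+ mice. It changed by 0.31 ± 0.16 and by 0.28 ± 0.16 in Mmp8-/- and Mmp8+/+ mice, nearly alike, and its groups did not overlap in Mmp8+/+ mice.

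Mcm7 and Mcm5 changed less than Mcm2 and Mcm6 in Mmp8-/- mice. Mcm7 measured 8.84, 9.34 and 9.23 in arthritic and 8.66, 8.91 and 9.19 in control Mmp8-/- mice, and 8.97, 8.94 and 9.34 in arthritic and 9.04, 9.28 and 9.25 in control Mmp8+/+ mice. Mcm5 measured 8.25, 8.61 and 8.81 in arthritic and 8.27, 8.36 and 8.62 in control Mmp8-/- mice, and 8.44, 8.53 and 8.79 in arthritic and 8.49, 8.56 and 8.76 in control Mmp8+/+ mice. In both genes the groups overlapped, with changes of 0.21 ± 0.19 and 0.14 ± 0.18 in Mmp8-/- and -0.11 ± 0.19 and -0.02 ± 0.18 in Mmp8+/+ mice.

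Mcm3 measured 8.68, 8.87 and 9.22 in arthritic and 8.86, 8.72 and 9.0 in control Mmp8-/- mice, and 8.51, 8.82 and 9.13 in arthritic and 8.60, 8.97 and 8.51 in control Mmp8+/+ mice. Mcm4 measured 8.05, 8.18 and 8.55 in arthritic and 8.35, 8.34 and 8.38 in control Mmp8-/- mice, and 7.91, 8.30 and 8.57 in arthritic and 8.61, 8.89 and 8.25 in control Mmp8+/+ mice. The changes of Mcm3 were 0.06 ± 0.20 and 0.12 ± 0.20 and those of Mcm4 -0.09 ± 0.20 and -0.32 ± 0.20, each with the value of Mmp8-/- mice first. The sign of Mcm3, Mcm5 and Mcm7 in both genotypes, of Mcm4 in Mmp8-/- mice and of Mcm2 in Mmp8+/+ mice changed with the processing, and the groups of Mcm3 and Mcm4 overlapped in both.

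Counted by overlap alone, all 3 arthritic mice lay above all 3 controls for 18 of 31 mitosis and 3 of 9 replication genes in Mmp8-/- mice, where 18.9% of all features did so. In Mmp8+/+ mice the counts were 9 of 31 and 1 of 9, where 18.9% of all features did so as well.

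Between the genotypes, no member was called. In arthritic mice, Mmp8-/- against Mmp8+/+, the median log2 fold change was 0.07 over mitosis and 0.01 over replication genes, limma called 0 of 40, and 1 of 40 had an unadjusted p under 0.05. The mitosis median was 0.22 without 08SE1187 or without 08SE1186, and it turned negative without 08SE1184 (-0.05) and without 08SE1189 (-0.09). Over all features 1 was called, which is 0.0054%, and 538 had an unadjusted p under 0.05. In control mice the medians were -0.33 and -0.27, 30 of 31 mitosis and 7 of 9 replication genes were lower in value in Mmp8-/- mice, 0 of 40 were called, and 3 had an unadjusted p under 0.05. Over all features the median was 0.01, 0.0% were called and 600 had an unadjusted p under 0.05. The share of all features lower in value was not counted. As the members moved together from mouse to mouse, their counts by sign are not separate observations.

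The control difference was largest in Aurka, at -0.62 ± 0.22, and Ttk, at -0.60 ± 0.26, with adjusted p of 1.0 in both. Without the 3 control arrays that stood apart, its median was -0.04 over mitosis and -0.11 over replication genes. The interaction of genotype and arthritis, the log2 fold change with arthritis in Mmp8-/- minus that in Mmp8+/+ mice, had medians of 0.37 and 0.23, with 0 of 40 called, 3 at an unadjusted p under 0.05, 0.0% of all features called and 589 at an unadjusted p under 0.05. Without these 3 arrays its medians were 0.14 and 0.13, with 0 of 40 at an unadjusted p under 0.05. Single arrays moved it the other way as well, since over the 31 mitosis genes the median was 0.59 without 08SE1187 (12 at an unadjusted p under 0.05), 0.54 without 08SE1183 (8) and 0.51 without 08SE1186 (7), with 0 called each time. The larger number of calls in Mmp8-/- mice is therefore not shown to be a difference between the genotypes.

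The interaction was largest in Mki67 (0.83 ± 0.40), Birc5 (0.82 ± 0.41), Kif15 (0.80 ± 0.42), Ndc80 (0.79 ± 0.29) and Spc25 (0.76 ± 0.28). In Mki67 and Kif15 the Mmp8+/+ change was negative and the Mmp8-/- change small, while Ndc80 and Spc25 changed by 0.00 and -0.01 in Mmp8+/+ mice. Genes with nearly equal changes in both genotypes were Melk, Tpx2, Ube2c, Tyms, Mcm6 and Foxm1, with interactions between -0.04 and 0.09 and SE between 0.22 and 0.35.

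Of the genes of blood precursors, which divide in marrow, none was called higher with arthritis in either genotype. The 11 erythroid genes averaged 6.23, 6.50 and 6.43 in arthritic and 6.00, 7.69 and 6.80 in control Mmp8-/- mice, and 5.84, 6.55 and 6.68 in arthritic and 7.69, 7.84 and 7.51 in control Mmp8+/+ mice. Of these, 0 were called higher and 1 lower in Mmp8-/- mice, and 0 higher and 7 lower in Mmp8+/+ mice. The control array 08SE1181, lowest for most members, was also the lowest control for the erythroid genes and for 12 granulocyte precursor genes, at 8.65, where the other 5 controls had 9.28 to 9.83. The arthritic Mmp8+/+ array 08SE1184, lowest of its group for most members, was the lowest of all 12 for both lists, at 5.84 and 8.25. Granulocyte precursor genes followed the array order of the mitosis genes in control Mmp8-/- mice (8.65, 9.28 and 9.70). They also did so in arthritic Mmp8+/+ mice (8.25, 8.79 and 9.25), but not in control Mmp8+/+ mice (9.70, 9.66 and 9.83). Among arthritic Mmp8-/- mice their order was the opposite, with 9.18 on 08SE1187, the lowest for the mitosis genes, and 8.55 on 08SE1189, the highest for them.

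Granulocyte precursor genes averaged 8.89 ± 0.32 in arthritic and 9.21 ± 0.53 in control Mmp8-/- mice, and 8.76 ± 0.50 in arthritic and 9.73 ± 0.09 in control Mmp8+/+ mice, with 0 of 12 called in Mmp8-/- and 8 of 12 lower in Mmp8+/+ mice. The 11 B cell precursor genes averaged 6.86 ± 0.26 in arthritic and 7.82 ± 0.24 in control Mmp8-/- mice, and 6.53 ± 0.12 in arthritic and 7.85 ± 0.13 in control Mmp8+/+ mice. Of the 10 tested, 9 were lower in Mmp8-/- and 8 in Mmp8+/+ mice. The 11 mature neutrophil genes, of cells that no longer divide, averaged 10.18 ± 0.12 in arthritic and 9.19 ± 0.41 in control Mmp8-/- mice, and 10.35 ± 0.07 in arthritic and 9.55 ± 0.14 in control Mmp8+/+ mice, with 5 of 11 higher in each. Other tissues of the joint differed as well. The 6 adipocyte genes averaged 7.38 ± 0.24 in arthritic and 9.46 ± 0.07 in control Mmp8-/- mice, and 7.32 ± 0.25 in arthritic and 9.28 ± 0.51 in control Mmp8+/+ mice, with 6 of 6 lower in each. The 5 osteoblast genes averaged 8.62 ± 0.65 in arthritic and 10.26 ± 0.23 in control Mmp8-/- mice, and 8.38 ± 0.19 in arthritic and 9.97 ± 0.28 in control Mmp8+/+ mice, with 4 of 5 lower in each. The 8 skeletal muscle genes averaged 9.86 ± 0.58 in arthritic and 10.94 ± 0.18 in control Mmp8-/- mice, and 9.90 ± 0.99 in arthritic and 11.39 ± 0.51 in control Mmp8+/+ mice, with 3 lower in Mmp8-/- and 7 in Mmp8+/+ mice. Osteoclast genes had higher means with arthritis, at 9.46 ± 0.06 in arthritic and 8.91 ± 0.22 in control Mmp8-/- mice, and 9.39 ± 0.12 in arthritic and 8.89 ± 0.17 in control Mmp8+/+ mice, with 2 of 8 higher in each. The 8 keratinocyte genes averaged 7.72 ± 0.24 in arthritic and 8.69 ± 0.78 in control Mmp8-/- mice. In Mmp8+/+ mice they averaged 9.08 ± 0.45 in arthritic and 8.68 ± 0.61 in control animals. Of the 8, 2 were lower with arthritis in Mmp8-/- mice and 0 were called in Mmp8+/+ mice. Between the arthritic genotypes 1 of the 8 was lower in Mmp8-/- mice, the only feature called in that comparison. The part of these cells and tissues in the values of the mitosis and replication genes was not tested.

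**Figure D5:**
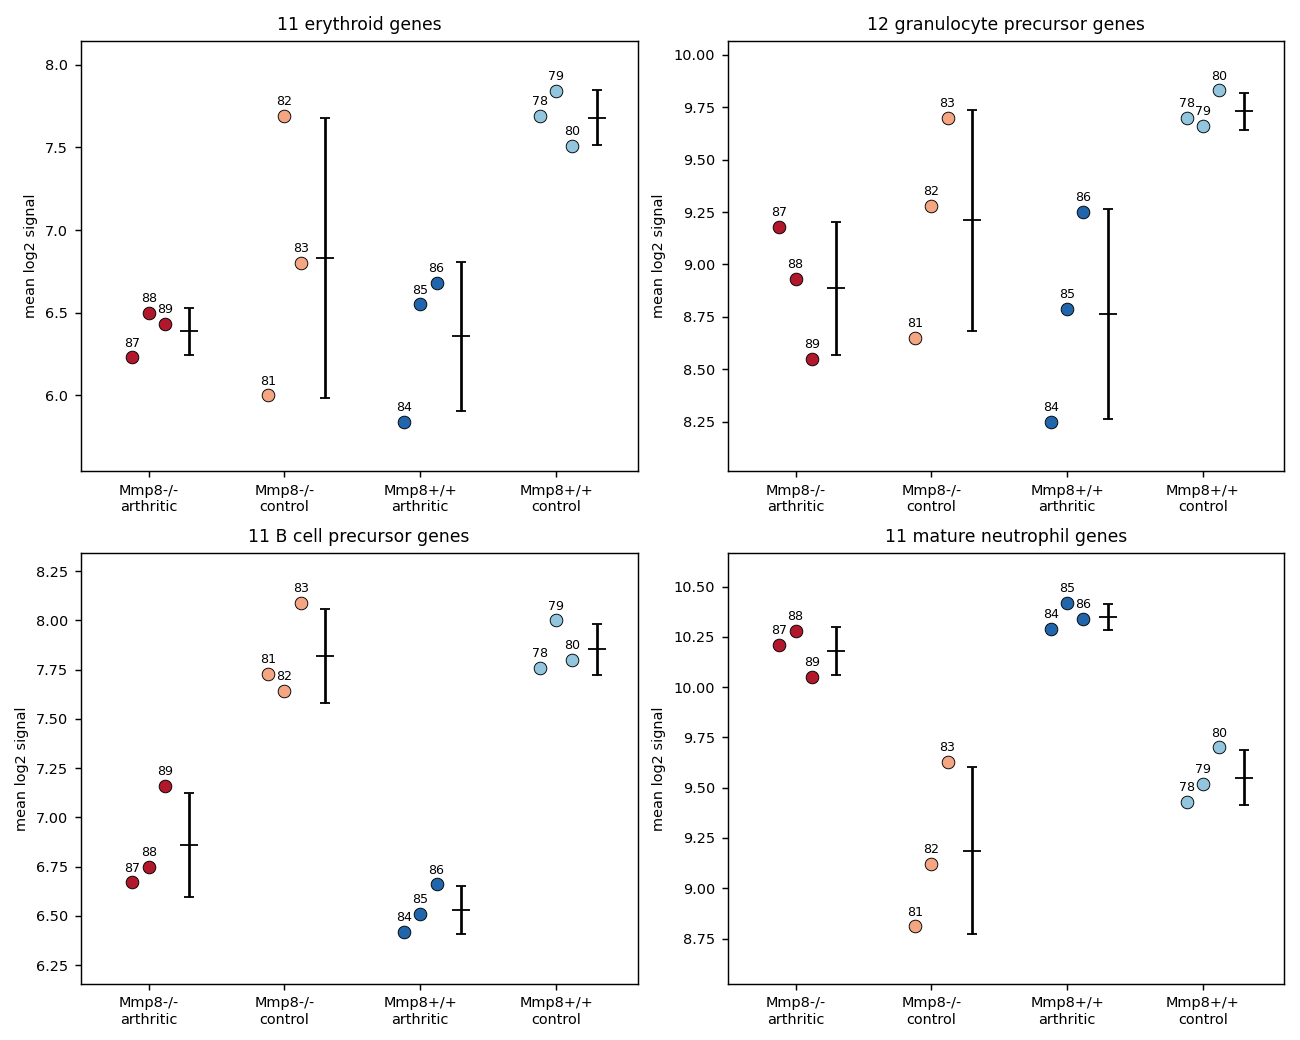
Mean log2 signal of 4 marker lists of blood cells on each array, with the last digits of the array name beside each point and the group mean ± SD (n = 3) to its right. Erythroid, granulocyte precursor and B cell precursor genes have lower means in arthritic groups, mature neutrophil genes higher ones, and the control Mmp8-/- array 81 is at 6.00 for erythroid genes.

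Further cell cycle genes, from lists drawn up by function, were counted in the same way. Of all features, 8.04% were called higher and 13.4% lower in Mmp8-/- mice, and 7.29% higher and 11.4% lower in Mmp8+/+ mice. Of 62 other mitosis genes tested, 15 were higher and 0 lower in Mmp8-/- mice (median 0.37), and 4 higher and 1 lower in Mmp8+/+ mice (median 0.14), the last count being no larger a share than among all features. The largest rises in Mmp8-/- mice were those of Cdca5, which holds sister chromatids together (1.10 ± 0.20, adjusted p = 0.0022), and the centromere protein gene Cenpi (0.98 ± 0.23, adjusted p = 0.00912). In Mmp8+/+ mice Cenpi (1.04 ± 0.23, adjusted p = 0.0058) and Fam83d (0.68 ± 0.18, adjusted p = 0.0183), which brings a kinase to the spindle, rose, and the kinetochore gene Zwint fell by 0.69 (SE 0.21, adjusted p = 0.0363).

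Of 46 other replication genes, 4 were higher and 1 lower in Mmp8-/- mice (median 0.23), and 0 higher and 3 lower in Mmp8+/+ mice (median -0.07). The share called higher was thus near or below that of all features, and the share called lower was below it in both genotypes. Ccne1, the cyclin of entry into S phase, and Fen1, which trims Okazaki fragments, rose most in Mmp8-/- mice, by 0.83 ± 0.17 (adjusted p = 0.00427) and 0.71 ± 0.18 (adjusted p = 0.0129). Tipin, a fork protection gene, fell in both genotypes, by 0.76 in Mmp8-/- and 0.94 in Mmp8+/+ mice (adjusted p = 0.0448 and 0.0183), and Rpa1, which coats single-stranded DNA, fell by 0.62 in Mmp8+/+ mice (adjusted p = 0.0375).

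Of 7 regulators of G1, Myc rose by 0.74 ± 0.19 and the D-type cyclin Ccnd2 fell by 0.83 in Mmp8-/- mice, and the kinase Cdk4 rose by 0.86 ± 0.20 in Mmp8+/+ mice. Of 13 inhibitors of the cycle, Cdkn2b rose by 0.70 ± 0.17 in Mmp8-/- mice, and 3 fell. The largest falls were those of Rb1, the retinoblastoma gene, by 0.88, and Cdkn2c, by 0.84. In Mmp8+/+ mice 0 of these inhibitors were called. With 8.04% of all features higher and 13.4% lower in Mmp8-/- mice, calls this few in lists this short say little about the lists.

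The promoters of the members were searched for short sequence elements, which the rule of choice did not use. Promoter windows of 250 bases before and 50 after the start were taken from RefSeq on GRCm38.p6 and were found for 34 members, 26 mitosis and 8 replication genes. The CHR element (cell cycle genes homology region, searched as TTTGAA or TTCGAA), at which the DREAM and MuvB complexes act, the CCAAT box (CCAAT), which binds NF-Y, and the E2F site (TTTGGCGC, TTTCGCGC, TTTCCCGC or TTTGCCGC) were searched on both strands. A CHR match was present in 21 of 26 mitosis genes (80.8%) and in 2 of 8 replication genes (25.0%), where 21.7% of all 27025 genes with a window had one. An E2F match was present in 2 of 26 mitosis genes (7.69%) and in 4 of 8 replication genes, where 2.6% of all genes had one. CCAAT was frequent in both, in 69.2% and 75.0%, beside 41.1% of all genes.

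With only the bases before the start counted, the CHR share was 42.3% of mitosis genes, 25.0% of replication genes and 19.6% of all genes, so that a part of the matches in mitosis genes lay past the start. Within the whole window it was present in 12 of 14 mitosis genes called higher in Mmp8-/- mice (85.7%) and in 9 of 12 not called (75.0%). A match is a description of letters and not a site, and 1 pair of matches to different motifs overlapped in the members.

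The stretch from 120 bases before to 30 bases after the start is shown for 5 mitosis genes that rose in Mmp8-/- mice (Ccnb2, Cdc20, Bub1, Prc1 and Cdk1), for Kif11, which did not, and for Mcm6, to show where the elements lie. Each reads 5′ to 3′ along the gene, with matches to any of the 3 motifs on either strand in capitals.
Ccnb2: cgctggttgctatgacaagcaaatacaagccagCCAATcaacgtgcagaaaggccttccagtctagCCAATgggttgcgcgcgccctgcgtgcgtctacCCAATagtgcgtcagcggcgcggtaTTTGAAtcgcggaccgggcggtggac
Cdc20: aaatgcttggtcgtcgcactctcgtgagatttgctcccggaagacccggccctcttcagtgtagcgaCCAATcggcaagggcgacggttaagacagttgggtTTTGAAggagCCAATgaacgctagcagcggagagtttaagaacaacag
Bub1: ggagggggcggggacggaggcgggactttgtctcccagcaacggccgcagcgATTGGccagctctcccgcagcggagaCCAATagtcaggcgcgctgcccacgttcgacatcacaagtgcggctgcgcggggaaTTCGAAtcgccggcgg
Prc1: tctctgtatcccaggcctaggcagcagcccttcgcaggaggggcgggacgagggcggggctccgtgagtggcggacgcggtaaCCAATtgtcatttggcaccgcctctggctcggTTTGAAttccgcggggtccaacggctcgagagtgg
Cdk1: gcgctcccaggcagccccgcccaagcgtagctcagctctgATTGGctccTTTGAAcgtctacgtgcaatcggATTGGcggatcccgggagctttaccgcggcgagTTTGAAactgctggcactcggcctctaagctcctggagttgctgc
Kif11: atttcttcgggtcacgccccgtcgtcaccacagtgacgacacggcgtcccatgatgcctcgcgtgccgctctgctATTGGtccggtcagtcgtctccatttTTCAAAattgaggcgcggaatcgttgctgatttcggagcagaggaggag
Mcm6: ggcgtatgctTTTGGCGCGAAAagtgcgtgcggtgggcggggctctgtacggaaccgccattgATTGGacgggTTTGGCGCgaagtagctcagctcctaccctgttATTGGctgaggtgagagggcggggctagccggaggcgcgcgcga

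These stretches are chr9:70421525-70421674 (minus strand) for Ccnb2, chr4:118437314-118437463 (minus) for Cdc20, chr2:127831830-127831979 (minus) for Bub1, chr7:80294331-80294480 (plus) for Prc1, chr10:69352883-69353032 (minus) for Cdk1, chr19:37376262-37376411 (plus) for Kif11 and chr1:128359676-128359825 (minus) for Mcm6. In each of the 6 mitosis genes a CHR match lay close to the start, at position -19 in Kif11, -18 in Cdc20, -15 in Cdk1, -5 in Prc1, 5 in Ccnb2 and 15 in Bub1, with a CCAAT box upstream of it, where 1 is the first transcribed base and the position is that of the first base of the match. From another annotated start of Prc1 the match lay at -30. Kif11 thus had an arrangement like that of the risen genes shown, though its CHR match was on the minus strand. Its log2 fold change was -0.21 ± 0.31 in Mmp8-/- mice. Cenpf, Kif23 and Kif4, also not called in Mmp8-/- mice, had a CHR match at 3, 3 and 20 with a CCAAT box upstream. Some other genes that rose in Mmp8-/- mice did not have this arrangement. Birc5 and Melk had no CHR or CCAAT match in the window, and Anln, Kif2c and Ndc80 had no CCAAT match. The Mcm6 stretch held 3 E2F matches, 2 of them overlapping, at -110, -106 and -47, and no CHR match.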

How the data were processed

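Ankle RNA of 12 mice, 3 per group, was hybridised to Affymetrix Mouse Gene 1.0 ST arrays, 1 per mouse. The authors normalized the intensities by RMA in Partek and deposited log2 signals of 28853 features. RMA pulls the arrays to 1 distribution, so a change shared by all genes would not show, and the study's own filter was not repeated here. All 12 columns of values were matched to samples by the sample identifier that names each column. The array annotation gave 1 symbol to 21789 features, several to 1621 and none to 5443, and 21698 of the first had a RefSeq gene. Of the 21789, the 85% with the highest mean were tested (18521).

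Differences between groups came from limma 3.58.1 (R 4.3.3), fitted to the 12 arrays together with a mean for each group and moderated variances, with two-sided p-values and Benjamini-Hochberg adjustment over the 18521 features. The fit was first tested on simulated data with known changes. The number of arrays limits the precision. The members and all gene lists were chosen with earlier results of these data known, so their counts are descriptions. Every member is named. Values on every array are given for the members with the largest and smallest change of each role in Mmp8-/- mice, for the Mcm genes and for members called in Mmp8+/+ mice. Of the other lists, up to 2 called genes in each direction were named.

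Alternatives were the compared groups alone, ordinary linear regression, an intensity trend with robust settings, array weights, 3 other sets of features, subtraction of array means, quantile normalization, the mean of all features of a gene, an FDR of 1%, and the removal of each array and of the doubted ones. Promoter sequences are from RefSeq (GRCm38.p6), matched by Entrez identifier. No window was found for Aurkb, Ccna2, Foxm1, Kif20a, Tpx2 and Mcm4.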

Additional observations from a re-analysis of the deposited data

How the results depend on the processing

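The mitosis genes called higher in arthritic Mmp8-/- mice, 18 of 31, were 10 with ordinary linear regression, 5 at an FDR of 1%, 2 without the arrays with Xist signal, 6 without the Mmp8-/- control array on which Mmp8 was detected, and 0 without these 3 arrays. Leaving out 1 array at a time gave 4 to 19 in the same count, with 4 without 08SE1181, 6 without 08SE1182 and 9 without 08SE1189, and the calls kept without 08SE1181 were those of Anln, Birc5, Kif20a and Kif2c. Each of the 18 kept its direction in all refits in which it was tested. There were 25 for 16 genes and 24 for Foxm1 and Ttk, which the stricter filter left out. Many of these refits could not change the direction. They altered only the error model or the features tested, or left out Mmp8+/+ arrays, which leaves the Mmp8-/- fold change as it was. The removal of 08SE1182 was counted both as a single removal and as that of a doubted array. In Mmp8+/+ mice the 4 mitosis genes called were 2 with ordinary linear regression, 1 without the arrays with Xist signal, and 0 without these 3 arrays or at an FDR of 1%, and 0 to 5 with 1 array left out, with 0 without 08SE1186, where Kif15 was called lower, and 1 without 08SE1178 or 08SE1185.

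The replication genes called in Mmp8-/- mice were 0 of 9, but 1 with the compared groups alone (Tyms), with a stricter filter (Tk1) and with the mean of all features of a gene (Tk1), 4 with quantile normalization (Mcm6, Rrm2, Tk1 and Tyms), and 0 to 1 with 1 array left out. In Mmp8+/+ mice they were 0, but 1 (Tyms) with array weights, the stricter filter or quantile normalization, and 0 to 1 with 1 array left out. Quantile normalization moved the median log2 fold change of replication genes in Mmp8-/- mice to 0.49 and of all features to 0.06. Without these 3 arrays that median was 0.10, and that of mitosis genes 0.38. The counts of 0 in the genotype comparisons and the interaction were 0 under every alternative run. The cause of these shifts was not tested, beyond the smaller number of arrays where arrays were removed.

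No paired analysis was possible because the array names carry no replicate numbers that groups share. Among the 14 members given on every array and not called in Mmp8-/- mice, 7 changed sign in at least 1 refit (21 of 350 fits). In Mmp8+/+ mice 6 of 18 did (17 of 450). These totals include refits that left the fold change as it was and so could not change its sign. The signs printed for these genes are therefore those of the fit reported and not stable directions. The number of arrays, 3 a group, limits the precision.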
